A study of Homo sapiens with 8 samples.

Results

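The genes of 7 RNA-binding proteins that regulate splicing, TIA1, TIAL1, RBFOX2, ELAVL1, PTBP1, MBNL1 and QKI, were examined as RNAs that TIA1 and RBFOX2 themselves bind. Members were the deposited eCLIP peaks that overlapped 7 gene spans, given to the nearest kb in the hg19 build, on the strand of the gene. This found 32 of the 7442 peaks of the series, 14 of 3215 for TIA1 and 18 of 4227 for RBFOX2. In eCLIP, protein and RNA are crosslinked with ultraviolet light, the protein is immunoprecipitated and the attached RNA is sequenced (clip), beside RNA that was not immunoprecipitated (input).

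HEK293T, a transformed line from human embryonic kidney that carries SV40 large T antigen, was the source of all 8 libraries, 2 clip and 2 input for TIA1 and 2 clip and 2 input for RBFOX2. The labels give no drug, genotype or other difference between libraries. They name an anti-HA tag antibody for the clip libraries and no antibody for input. The expression of a tagged protein is not described in these sources, and the extraction text of every library, those of RBFOX2 too, speaks of TIA1-bound beads. The authors deposited 1 list per protein that joins both replicates and holds, for each peak, a position, a strand, a −log10 p and a log2 fold, read as clip over input. Every fold and p below is therefore the authors' value for 1 peak, with no spread between replicates, no read count and no test between groups. The lists hold no expression values, so the cell line could not be checked against marker genes.

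These proteins steer the choice of exons by binding short elements in pre-mRNA. TIA1 and its close relative TIAL1 bind U-rich RNA, in introns just after 5′ splice sites and in 3′ untranslated regions, and both take part in stress granules. RBFOX2 binds the element GCAUG and acts by position, favouring or blocking an exon according to the side on which it binds. ELAVL1 (HuR) binds U-rich and AU-rich elements and stabilises mRNAs, PTBP1 binds pyrimidine-rich RNA and mostly represses exons, MBNL1 binds YGCY elements and QKI binds ACUAA-type elements. Many such proteins are known to regulate the splicing or stability of their own transcripts and of one another's. The question asked here was narrower, whether TIA1 and RBFOX2 had peaks in the 7 genes. Splicing and stability were not measured.

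No peak of either list lay in TIA1, TIAL1, RBFOX2 or MBNL1. Peaks were found in 3 of the 7 genes, QKI, PTBP1 and ELAVL1, and each list had peaks in all 3. In each of the 3, a TIA1 peak and an RBFOX2 peak overlapped. No peak lay on the opposite strand of any of the 7 spans (0 TIA1 and 0 RBFOX2 peaks). The share of all genes with a peak needs an hg19 annotation and was not analysed here, so the count of 3 in 7 cannot be set against other genes.

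**Figure D1:**
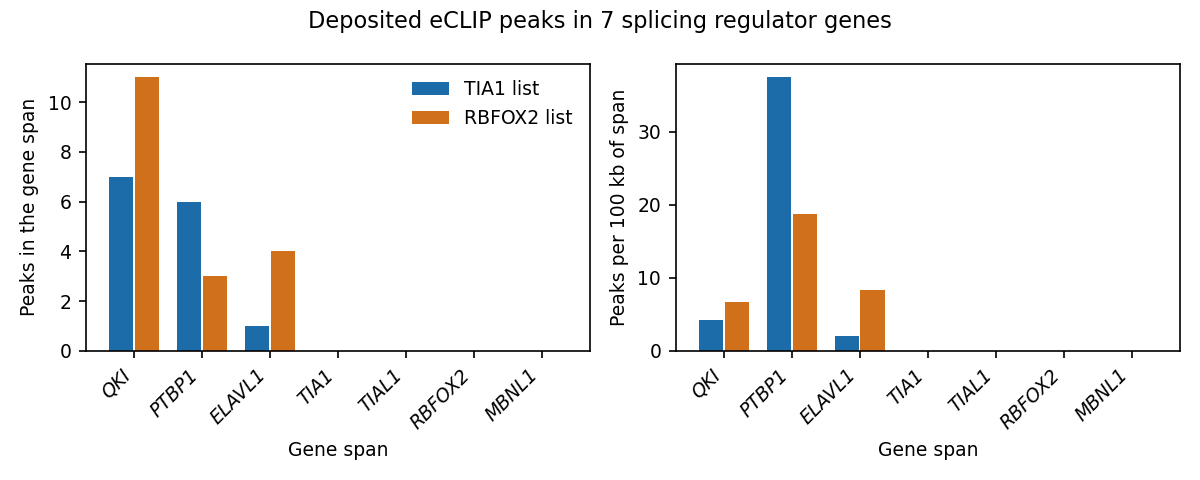
Deposited peaks in each gene span (left) and per 100 kb of span (right), TIA1 list in blue and RBFOX2 list in orange. QKI had 7 and 11 peaks, PTBP1 6 and 3, ELAVL1 1 and 4, and the other 4 genes none. Per 100 kb PTBP1 stood highest, with 37.5 and 18.8, counting abutting peaks singly. By share of the span covered, PTBP1 led in the TIA1 list (0.69%). In the RBFOX2 list ELAVL1 led (1.17%, against 0.66% in PTBP1).

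The proteins' own genes came first. The TIA1 span, 40.0 kb on the minus strand of chromosome 2 (70436001 to 70476000), held 0 TIA1 and 0 RBFOX2 peaks. On that strand the nearest TIA1 peak lay 694 kb from the span and the nearest RBFOX2 peak 519 kb from it. The RBFOX2 span, 291.0 kb on the minus strand of chromosome 22 (36134001 to 36425000), was also without a peak in both lists. There the nearest TIA1 peak was 2219 kb away and the nearest RBFOX2 peak 2672 kb away, and within 1 Mb of the span on that strand neither list had a peak. Neither protein thus had a deposited peak in its own gene, nor in the gene of the other.

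TIAL1, the paralogue of TIA1, has a span of 25.0 kb on the minus strand of chromosome 10 (121332001 to 121357000), again with no peak. The nearest peaks, 1 of each list, lay 275 kb upstream. MBNL1, a regulator of muscle and brain splicing, spans 199.0 kb on the plus strand of chromosome 3 (151985001 to 152184000) and held none, with the nearest peak of each list 696 kb downstream. Set against gene lengths in GENCODE 29, the MBNL1 span differed by -23.0 kb and the other 6 spans by -0.228 to 1.31 kb. The distance to the nearest peak on either side was far longer than the stretch of MBNL1 left out. A gene without a peak had no stretch kept in these lists, where the lowest log2 fold is about 3 and the lowest −log10 p is 3.01. Binding below those values, and genes with too few reads to call a peak, are not seen in such lists. A stretch dropped when the replicates were joined would be missing as well. The level of these RNAs in HEK293T cells was not measured here.

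QKI had more single peaks than the other genes, 7 of TIA1 and 11 of RBFOX2. With peaks up to 50 bases apart joined it no longer led, with 2 TIA1 sites, against 3 in PTBP1, and 4 RBFOX2 sites, as many as ELAVL1. The gene encodes Quaking, a STAR-family protein that regulates splicing, circular RNA formation and mRNA stability, and its span covers 165.0 kb on the plus strand of chromosome 6 (163835001 to 164000000). At the 5′ end of the span, 6 of the 7 TIA1 peaks and 8 of the 11 RBFOX2 peaks lay together in 533 bases, from 163835711 to 163836243. The other peaks, 1 of TIA1 and 3 of RBFOX2, lay toward the 3′ end and did not overlap.

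The TIA1 peaks of the QKI 5′ site formed 2 maxima. The peak from 163835818 to 163835920 had a log2 fold of 4.08 and a −log10 p of 42.1, the highest −log10 p of any member. After it, the peak from 163835964 to 163836028 had a log2 fold of 3.36 (−log10 p 14.1). The peak from 163836029 to 163836120 had the highest fold of the site, 4.26 on the log2 scale or 19.2-fold, with a −log10 p of 33.1. It was followed without a gap by a peak to 163836159 with a log2 fold of 4.16. The outermost TIA1 peaks had lower log2 folds, 3.23 from 163835787 to 163835817 and 3.03 from 163836165 to 163836243.

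The RBFOX2 peaks of the site had 1 maximum, between those of TIA1. From 163835711 to 163835819 the log2 fold was 3.32, and from 163835820 to 163835894 it was 3.34, with the highest −log10 p of the RBFOX2 members, 36.3. From 163835895 to 163835960 it was 3.75, and from 163835961 to 163835991 it reached 3.99, or 15.8-fold, the highest fold of any RBFOX2 member. Beyond this peak the log2 fold was 3.76, 3.50, 3.28 and 3.14 in the next 4 peaks, the last of which ended at 163836102. The RBFOX2 site began 76 bases before the TIA1 site, and the TIA1 site ended 141 bases after it.

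**Figure D2:**
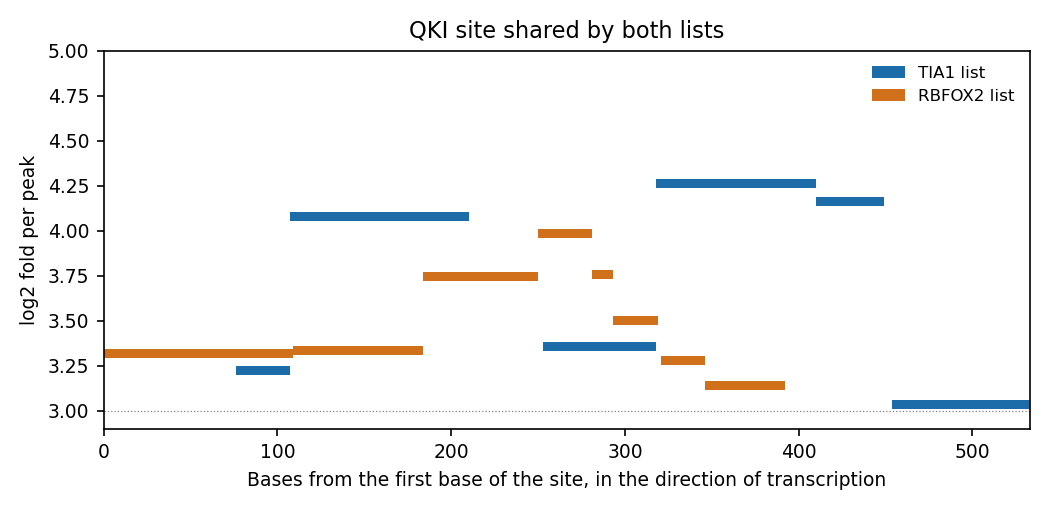
Peaks at the QKI 5′ site, each drawn from its first to its last base at its log2 fold, against bases from the first base of the site in the direction of transcription (TIA1 list blue, RBFOX2 list orange, dotted line at a log2 fold of 3). TIA1 peaks stand highest, at 4.08 and 4.26, on both sides of the RBFOX2 maximum of 3.99.

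Over the QKI span both lists covered 271 bases, 62.3% of the 435 bases in TIA1 peaks and 47.9% of the 566 bases in RBFOX2 peaks. At 175 of these 271 bases the TIA1 log2 fold was the higher. The means over the shared bases were 3.86 for TIA1 and 3.44 for RBFOX2, a difference of 0.42 on the log2 scale. The difference ran from 1.12, where the TIA1 peak of highest fold meets the last RBFOX2 peak of the site, to -0.63 at the RBFOX2 maximum. Folds of the lists come from separate immunoprecipitations of unknown depth and yield, so these are differences of deposited values.

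The QKI 5′ site was broad for its lists. With peaks up to 50 bases apart joined, the TIA1 site of 457 bases ranked in place 3 by width among 2413 TIA1 sites, and 0.580% of sites held as many as its 6 peaks. The RBFOX2 site of 392 bases ranked in place 30 by width among 2749 RBFOX2 sites, and 0.728% of sites held as many as its 8 peaks. A joined site takes the highest −log10 p and the highest fold of its peaks, so ranks by these favour sites of many peaks. By highest −log10 p the TIA1 site ranked 62nd and the RBFOX2 site 45th. By highest fold the TIA1 site ranked 125th and the RBFOX2 site 579th, so in the RBFOX2 list the site stood out more by its −log10 p and width than by its fold.

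Toward the 3′ end of QKI, a 26-base TIA1 peak lay from 163984493 to 163984518, 15.5 kb before the end of the span, with a log2 fold of 3.04 and a −log10 p of 9.43. The 3 RBFOX2 peaks lay within 1.03 kb of one another, from 163993733 to 163994761. Their log2 folds, in the direction of transcription, were 3.59, 3.30 and 3.89, and their −log10 p were 6.77, 12.4 and 3.52. The TIA1 peak was 9214 bases from the nearest of them. The last RBFOX2 peak, from 163994708 to 163994761, thus had a high fold beside a −log10 p close to the lower limit of the list.

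PTBP1, the polypyrimidine tract-binding protein gene, held 6 TIA1 and 3 RBFOX2 peaks in a span of only 16.0 kb on the plus strand of chromosome 19 (797001 to 813000). Its TIA1 peaks reached the highest fold of all 32 members. Of its 9 peaks, 7 lay in 359 bases near the 3′ end of the span, from 811617 to 811975. In that stretch 2 RBFOX2 peaks came before the 4 TIA1 peaks, and 1 RBFOX2 peak lay among them.

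The TIA1 site of PTBP1 comprised 4 abutting peaks from 811879 to 811975, with the higher folds in the downstream pair. The peak from 811879 to 811890 had a log2 fold of 3.22, and the peak from 811891 to 811939 had 3.59. The 15-base peak from 811940 to 811954 had a log2 fold of 4.82, or 28.2-fold, with a −log10 p of 16.7. It ranked 31st by fold among the 3215 TIA1 peaks. The 21-base peak from 811955 to 811975 had 4.62 and ranked 47th. The joined site, which takes the highest values of its 4 peaks, ranked 24th of 2413 by highest fold, but 299th by highest −log10 p.

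RBFOX2 had its own peaks in PTBP1 just upstream. The peak from 811617 to 811648 had a log2 fold of 3.93 and a −log10 p of 15.7, and the abutting peak from 811649 to 811714 had 3.21 and 16.8. They ended 164 bases before the TIA1 site. The remaining RBFOX2 peak, of 8 bases from 811942 to 811949, lay wholly inside the TIA1 peak of highest fold. Its log2 fold of 3.07 was close to the lower limit of the list, with 8.07% of RBFOX2 peaks lower, and the TIA1 fold at these 8 bases was higher by 1.75 on the log2 scale. These 8 bases were 7.27% of the 110 bases in TIA1 peaks of PTBP1 and 7.55% of the 106 bases in its RBFOX2 peaks.

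The remaining PTBP1 peaks were short TIA1 peaks in the middle of the span. The 10-base peak from 805559 to 805568 had a log2 fold of 3.89 and a −log10 p of 7.34, and the 3-base peak from 806408 to 806410 had 3.16 and 9.49. They lay 6048 and 5206 bases from the nearest RBFOX2 peak. Neither abutted another peak of its list.

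ELAVL1, the gene of the mRNA-stabilising protein HuR, held 1 TIA1 and 4 RBFOX2 peaks in a span of 48.0 kb on the minus strand of chromosome 19 (8023001 to 8071000). The TIA1 peak lay 0.47 kb from the 5′ end of the span, from 8070446 to 8070530, with a log2 fold of 3.80 and a −log10 p of 17.7. An RBFOX2 peak from 8070382 to 8070523 overlapped it over 78 bases, 91.8% of the TIA1 peak, with a log2 fold of 3.26 and a −log10 p of 10.8. In the direction of transcription the TIA1 peak began 7 bases earlier and the RBFOX2 peak ended 64 bases later. The TIA1 fold was higher by 0.54 on the log2 scale.

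The other 3 RBFOX2 peaks of ELAVL1 formed a group near the 3′ end of the span, 4.38 to 4.99 kb before it, with no TIA1 peak in the gene closer than 42258 bases. In the direction of transcription, the 202-base peak from 8027986 to 8028187 had a log2 fold of 3.59 and a −log10 p of 5.07. The next, from 8027790 to 8027918, had 3.56 and 14.7, and the last, from 8027381 to 8027470, had 3.65 and 4.21. ELAVL1 and QKI thus each had a site of both lists near the 5′ end of the span. Each also had, near its 3′ end, 3 RBFOX2 peaks that overlapped no TIA1 peak. They differed in that QKI had a TIA1 peak toward the 3′ end and ELAVL1 did not.

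**Figure D3:**
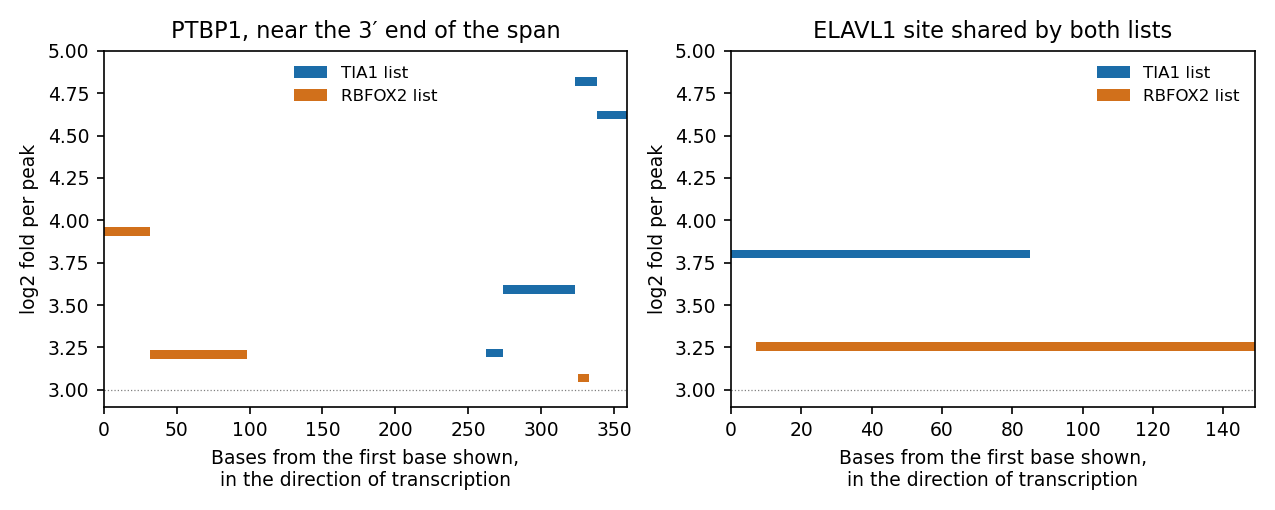
Peaks near the 3′ end of the PTBP1 span (left) and at the shared ELAVL1 site (right), each drawn over its bases at its log2 fold, in the direction of transcription (TIA1 list blue, RBFOX2 list orange, dotted line at 3). In PTBP1 the RBFOX2 peaks at 3.93 and 3.21 precede the TIA1 peaks, which reach 4.82; in ELAVL1 the TIA1 peak at 3.80 and the RBFOX2 peak at 3.26 share 78 bases.

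Overlap with the other list was counted over all members. The clip libraries of both proteins are labelled with the same anti-HA antibody, and no other kind of clip library is present. Whether overlapping peaks reflect binding by both proteins was therefore not tested. Of the 14 TIA1 peaks in the 7 genes, 6 shared at least 1 base with an RBFOX2 peak, or 42.9% (95% Clopper-Pearson interval 17.7 to 71.1%), against 24.0% of the whole TIA1 list. Of the 18 RBFOX2 peaks, 10 shared a base with a TIA1 peak, or 55.6% (30.8 to 78.5%), against 21.7% of the whole RBFOX2 list. The peaks are not independent, since 4 of the 6 and 8 of the 10 belong to the QKI 5′ site. Both intervals take them as independent and are therefore too narrow. Counted as joined sites, 3 of 6 TIA1 sites overlapped an RBFOX2 site, against 23.8% of all TIA1 sites, and 3 of 10 RBFOX2 sites overlapped a TIA1 site, against 20.6% of all RBFOX2 sites. When the shared bases had to make up 50% or more of both peaks, 28.6% of the TIA1 members remained, against 16.3% of all TIA1 peaks, and 22.2% of the RBFOX2 members, against 12.4% of all RBFOX2 peaks. Allowing up to 100 bases between peaks, the shares were 78.6% of the TIA1 members, against 29.8% of all TIA1 peaks, and 55.6% of the RBFOX2 members, against 28.6% of all RBFOX2 peaks. With 3 genes behind these counts, no departure from the whole lists can be claimed.

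High folds in these genes were in the TIA1 list. Of the 14 TIA1 peaks, 5 had a log2 fold of 4 or more, 3 in QKI and 2 in PTBP1, against 9.21% of the whole TIA1 list. No RBFOX2 peak of the 18 reached it, against 19.3% of the whole RBFOX2 list, although the highest, at 3.99, lay just under it. Because 8 of these 18 peaks are pieces of the QKI 5′ site and all come from 3 genes, neither count can be read as a departure from its list. The median over the 14 TIA1 peaks was a log2 fold of 3.70, and over all TIA1 peaks 3.36. Over the 18 RBFOX2 peaks it was 3.53, and over all RBFOX2 peaks 3.48. The median −log10 p was 13.9 over TIA1 members, against 7.36 over that list, and 14.1 over RBFOX2 members, against 6.77 over theirs. The −log10 p was above the list's median in 13 of 14 TIA1 members and 14 of 18 RBFOX2 members, and the fold in 8 of 14 and 10 of 18. For −log10 p, QKI alone supplied 7 of the 13 and 9 of the 14, most of them pieces of its 5′ site. These medians and counts too cannot be read as a departure from the lists. None of the 32 reached the upper limit of 400, which 65 TIA1 peaks and 29 RBFOX2 peaks of the whole lists did.

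**Figure D4:**
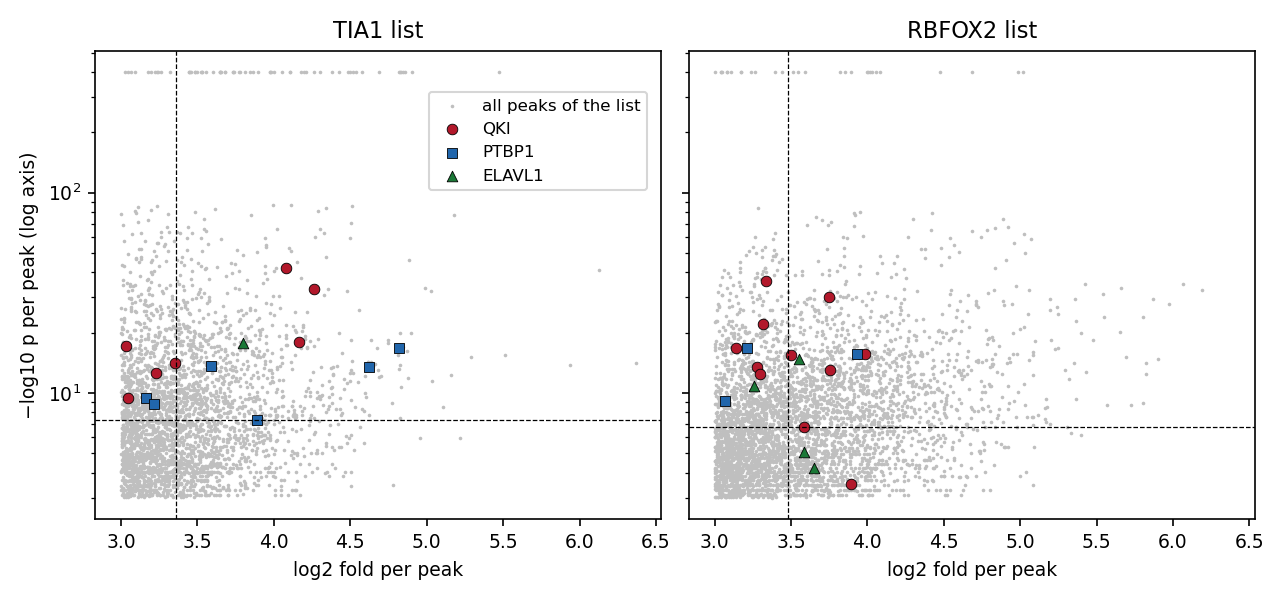
Log2 fold against −log10 p (log axis) for every peak of the TIA1 list (left) and the RBFOX2 list (right), in grey, with the peaks of QKI, PTBP1 and ELAVL1 marked and dashed lines at the medians of each list. Most marked peaks lie above the median −log10 p (13 of 14 and 14 of 18, with 7 and 9 of these in QKI). Past a log2 fold of 4 lie 5 TIA1 peaks but no RBFOX2 peak (0 of 18).

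PTBP1 and ELAVL1 lie on chromosome 19, which held 278 TIA1 peaks and 203 RBFOX2 peaks. These genes held 7 peaks of each list there, and 2 of the 7 in each list overlapped the other list, against 17.3% of all TIA1 peaks and 29.1% of all RBFOX2 peaks of that chromosome.

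Motif content of the spliced messages was set beside these counts, using 1 protein-coding transcript per gene from GENCODE 29. The motifs searched were GCATG, the RBFOX2 element as DNA letters, and TTTTT, a run of U in the RNA, on the message strand and with overlapping matches counted. The messages of the 3 genes with peaks held 8.45 (QKI), 3.52 (PTBP1) and 7.65 (ELAVL1) TTTTT per kb. Those of the 4 genes without peaks held 7.96 (TIA1), 17.2 (TIAL1), 6.78 (RBFOX2) and 7.12 (MBNL1) per kb. The median over 19641 genes was 2.22 per kb, and 82.4% of these genes had at least 1 TTTTT. All 7 messages were thus above the median in U runs, and all were also longer than the median message of 2840 bases. The richest, TIAL1, was denser than 99.6% of genes.

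GCATG was counted in the same messages. It occurred at 0.845 per kb in QKI (8 matches) and 0.499 per kb in ELAVL1 (3 matches), and was not found in the PTBP1 message of 3691 bases (0 matches). In the genes without peaks there were 6 matches in TIA1, 5 in TIAL1, 5 in RBFOX2 and 7 in MBNL1, or 1.29, 0.986, 0.721 and 1.08 per kb. The median over all genes was 0.838 per kb, and 85.0% of genes had at least 1 match. A link between motif density and peaks was not tested. The counts leave out introns and other transcripts of each gene, and they were not placed at the peaks, whose sequence needs an hg19 genome and is not shown here.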

How the data were processed

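The authors deposited 1 peak list per protein from clip and input libraries of both replicates, with a −log10 p-value and a log2 fold per peak and no header. Both units were inferred from the deposited values, which stop at a −log10 p of 400, with clip over input as the direction of the fold, since the labels tie each list to clip and input libraries. The submitters' processing notes name UMI-tools 1.0.0, cutadapt 1.14, STAR 2.4.0i, SAMtools 1.6 and hg19. No source here names the peak caller. Read depth is unknown. Replicates are biological by the extraction text and technical by the design text, which was not settled.

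Positions are 1-based. A peak was a member if it shared at least 1 base with a span on its strand, and overlapped the other list by the same rule. Joined sites had at most 50 bases between peaks. Genome coordinates of the reference, GRCh38, were not used: only gene lengths and message sequences were. The message was the longest protein-coding transcript tagged as the principal isoform, or the longest where none was tagged. Exon, intron and untranslated region, and further splicing regulator genes listed for counting, need hg19 and were not analysed here. Genes, lists and peaks to name were chosen with earlier results of these data known. Peaks named were all those of a gene with up to 5 in a list, otherwise those of highest −log10 p or fold, the first and last, and every overlapping peak, and the remaining PTBP1 and QKI peaks were added to complete each site. Counting was tested on simulated data. Software was pandas 2.3.3, scipy 1.17.1, numpy 2.4.6 and matplotlib 3.10.9 under Python 3.11.15.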

Additional observations from a re-analysis of the deposited data

How the results depend on the processing

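No alternative gave a peak in TIA1, TIAL1, RBFOX2 or MBNL1, but most of them only keep, join or remove peaks and could not add any. On the gene strand the nearest peaks to these spans lay at least 275 kb away. Widening by 1 kb could therefore not add a peak either, and the empty spans were not tested by these settings. A −log10 p of at least 5, or spans widened by 1 kb, left peaks of both lists in the same 3 genes. With a log2 fold of at least 4, 5 TIA1 peaks remained and 0.0% of them overlapped an RBFOX2 peak, because 0 RBFOX2 peaks remained, in 0 of the genes, so no RBFOX2 fold or share could be given. Joining peaks within 50 bases left 6 TIA1 and 10 RBFOX2 sites, reduced QKI to 2 and 4, and 30.0% of the RBFOX2 sites overlapped. Leaving out peaks under 20 bases kept 10 of the 14 TIA1 peaks and 16 of the 18 RBFOX2 peaks. In PTBP1 only 2 of the 6 TIA1 peaks remained. The highest TIA1 log2 fold fell to 4.62. The peak pair that overlaps in PTBP1 was removed, and QKI and ELAVL1 kept overlaps. Requiring overlap of at least 50% of each peak gave an RBFOX2 share of 22.2%, against 12.4% of the whole list by that rule. Allowing 100 bases between peaks gave a TIA1 share of 78.6%, against 29.8% of the whole list. The opposite strand held 0 peaks in 0 genes in both lists. No paired analysis was possible because the values of both replicates are joined in every list, which also prevents leaving 1 replicate out. The unknown depth limits what a missing peak shows.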
